A study of Mus musculus with 48 samples.

Results

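The genes described here are 10 components of the extracellular matrix that coats neurons of the brain: the lectican proteoglycans Ncan (neurocan), Bcan (brevican), Vcan (versican) and Acan (aggrecan), the link proteins Hapln1, Hapln2 and Hapln4, the tenascins Tnr and Tnc, and the receptor-type phosphatase proteoglycan Ptprz1. They were found by gene symbol in the deposited gene table, which held 37620 genes, and by gene identifier in the deposited exon table, where they took 156 of 247845 exons. All 10 had a row in both tables, all 10 were above 0 in every library, and all 10 passed the filter on low values (1 ppm of the mean column total, or 14.1 normalised reads, in at least 12 libraries). The tissue, collected by laser microdissection, was nucleus accumbens shell, part of the ventral striatum and of the reward circuit, from heterogeneous stock-collaborative cross (HS-CC) mice, an outbred stock made from inbred founder strains. Mice of a High line and of a Low line, bred for greater and lesser ethanol preference, were taken at selection generation 4, and each line was represented by 12 females and 12 males, with 1 poly(A) library per mouse (48 in all). No allele or drug treatment distinguished the groups in the labels. Families and litters were not given, so the p-values rest on the spread among these mice, some of which may be related.

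Lecticans are large chondroitin sulfate proteoglycans that bind hyaluronan through their N-terminal domain and tenascins through their C-terminal domain. Link proteins lock the bond between lectican and hyaluronan, and trimers of tenascin-R crosslink the chains, which gives the dense perineuronal net around fast-spiking interneurons and a looser matrix elsewhere. In brain, Ncan and Bcan are made largely by glia, Hapln2 is the link protein of the nodes of Ranvier in white matter, and Ptprz1 is made by astrocytes and oligodendrocyte precursors, in part as the secreted proteoglycan phosphacan.

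The splice forms of Vcan and Ptprz1 decide how much of the sugar-bearing stretch the protein keeps. Junctions of these forms are shown because the exon results below concern these exons. Those results use the value of each exon, and reads across junctions were not counted here. The sequences are from GENCODE M21 transcripts (GRCm38), 5′ to 3′, with the last 20 bases of the upstream exon in lower case and the first 20 bases of the downstream exon in capitals. In Vcan (chromosome 13, minus strand), the shared downstream exon, chr13:89685079-89685192, is coding and 114 bases long. It is joined to the 5217-base GAG-beta exon (chr13:89688285-89693501) in Vcan-203, which has both sugar attachment exons, and in Vcan-206, which lacks GAG-alpha. That junction is the same in both transcripts and does not tell them apart. The shared exon is joined to the 2880-base GAG-alpha exon (chr13:89702918-89705797) in Vcan-202, or straight to a 294-base exon (chr13:89712205-89712498) in a transcript that carries neither.
Vcan GAG-beta junction: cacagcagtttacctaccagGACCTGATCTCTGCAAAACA
Vcan GAG-alpha junction: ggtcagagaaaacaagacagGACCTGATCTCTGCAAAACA
Vcan junction without either: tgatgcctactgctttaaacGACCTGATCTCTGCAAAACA
In Ptprz1 (chromosome 6, plus strand), exon 12 runs over 3547 bases in the long receptor (chr6:22999200-23002746) and over 1000 bases in the short receptor Ptprz1-204 (chr6:22999200-23000199). Both forms join it to the same exon 13 (chr6:23007274-23007418).
Ptprz1 long receptor junction: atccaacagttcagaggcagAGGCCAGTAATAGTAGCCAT
Ptprz1 short receptor junction: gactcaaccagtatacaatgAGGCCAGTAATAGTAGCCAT
Exon 16 of the long receptor has 21 bases (chr6:23024714-23024734). It is given here in capitals between 20 bases of each neighbouring exon in lower case.
Ptprz1 exon 16: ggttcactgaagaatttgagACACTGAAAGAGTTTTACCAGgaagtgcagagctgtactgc

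The deposited values are read counts that the authors normalised and rounded, and a gene column summed to between 13579559 and 14561911. The markers of medium spiny neurons, the main cell type of the striatum, summed to a median of 126705 in High mice and 126058 in Low mice. Markers of cortical pyramidal neurons, which the shell should lack, summed to 458 to 3218 in High mice and 478 to 5881 in Low mice, and were highest in High male replicate 1, High male replicate 10 and Low male replicate 6. Of the 7 markers of that list, 4 passed the filter on low values. Results that rest on these 3 libraries are given with and without them.

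Per kilobase of annotated exon, Bcan was the most abundant of the 10, at 1033 ± 133 normalised reads per kb (SD, n = 48). Ncan followed at 309 ± 28.6, Ptprz1 at 135 ± 23.3 and Vcan at 41.2 ± 9.14 normalised reads per kb. Per kb, the ranges of Bcan, Ncan and Ptprz1 over the 48 mice did not overlap with each other, nor did that of Ptprz1 with Vcan. Their order per kb was thus the same in every mouse. It depends on the annotated exon length, while reads lay mostly in the 3′ exons of most of these genes. In normalised reads not divided by length, Ncan (1867 to 2738) and Ptprz1 (1318 to 2696) overlapped. Tnr then averaged 84.1 and Hapln2 45.4, the reverse of their order per kb. The link proteins came next, with Hapln1 at 30.9 ± 5.54, Hapln4 at 22.7 ± 7.16 and Hapln2 at 19.1 ± 8.53 normalised reads per kb. Among these the order was less firm: Hapln4 was above Hapln2 in 33 of 48 mice. Tnr was at 6.53 ± 2.14, Tnc at 2.74 and Acan at 2.22 ± 0.935 normalised reads per kb; the values of Tnc ran from 3 to 58 reads per mouse. Acan, the lectican that marks classical perineuronal nets, was the lowest of the 10, and Tnc was above it in 30 of 48 mice. Bcan had a higher mean value than 96.5% of the 15350 genes tested, Ncan than 91.3% and Acan than 4.80%.

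The spread within groups was 0.12 on the log2 scale for Ncan, lower than in all but 6.36% of tested genes. The median of genes of like level was 0.16. The spread was 0.19 for Bcan (0.17 in genes of like level), 0.32 for Vcan (0.18) and 0.42 for Acan (0.43). Hapln2 (0.51) and Tnc (0.60) had the widest spreads of the 10, above 91.9% and 95% of tested genes and against 0.36 and 0.42 in genes of like level.

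No line difference of the 10 genes was called at an adjusted p under 0.05 (limma, Benjamini-Hochberg over 15350 genes). Across all genes tested, 43 were called, or 0.28%. At an unadjusted p under 0.05, 1 of the 10 differed, Ncan, against 9.07% of all genes (4.57% higher and 4.5% lower in High mice). The log2 differences of the 10 ran from -0.22 to 0.18 with a median of 0.040, and 6 of the 10 were above 0, against 48.5% of all genes. In this dissected tissue, fewer cells of a type and less RNA per cell cannot be told apart.

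**Figure D1:**
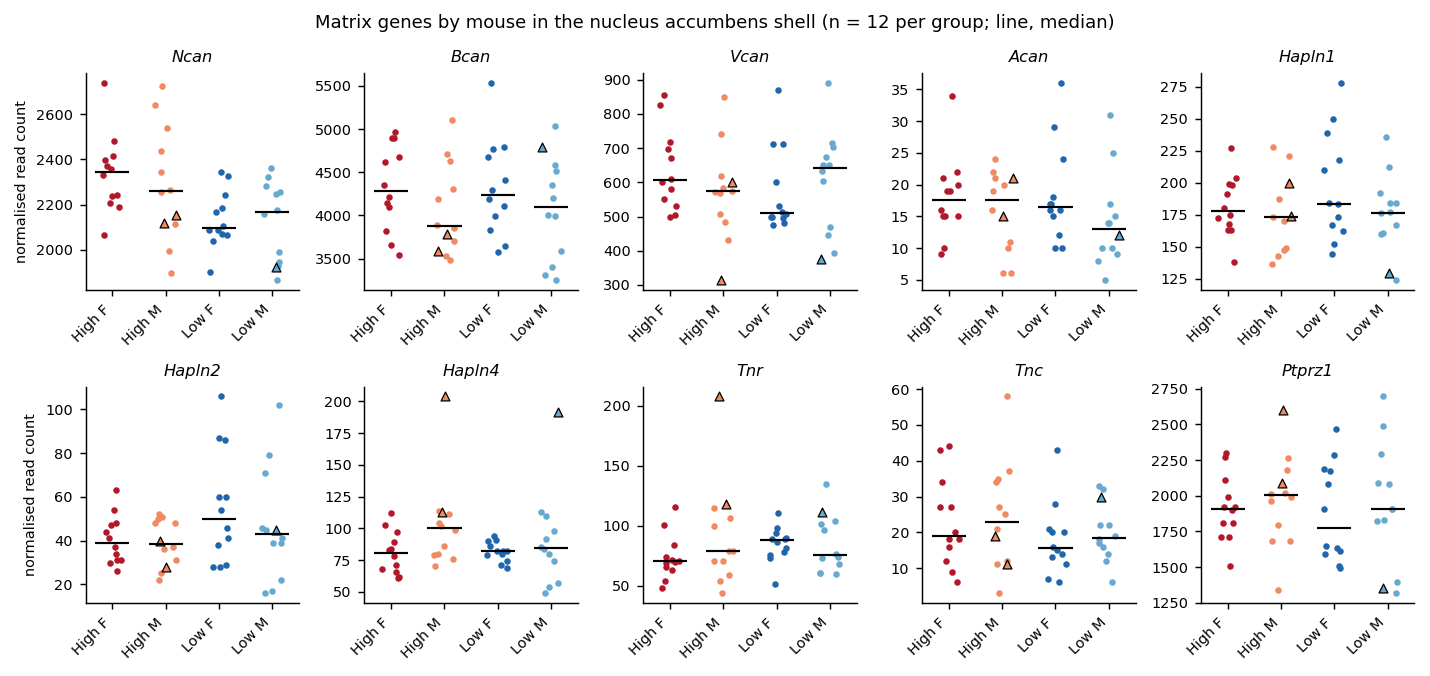
Normalised read count of each matrix gene (vertical axis, linear, not starting at 0) in 48 mice, with the High line (females, males) left of the Low line (females, males), a point per mouse and a line at the group median. Triangles mark the 3 libraries highest in cortical markers. Groups overlap for every gene, and Hapln4 at 204 and 192 and Tnr at 208 stand above all other mice.

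Ncan, a glial lectican that is cleaved as the brain matures, had 2067, 2343.5 and 2738 normalised reads (lowest, median and highest) in High females, against 1902, 2097.5 and 2344 in Low females. In males it had 1898, 2258.5 and 2727 normalised reads in the High line, against 1867, 2168.5 and 2360 in the Low line. The groups overlapped, and 19 of 24 High mice were above the Low median. The mean was 2313 ± 215 normalised reads in High mice and 2129 ± 151 in Low mice (SD, n = 24 each). The log2 difference was 0.12 ± 0.036 (SE), 1.08-fold (95% interval 1.03 to 1.14), with an unadjusted p of 0.00197 and an adjusted p of 0.179 by limma. It was 0.13 in females and 0.11 in males, at unadjusted p-values of 0.0148 and 0.0412 by limma. Ncan was again the only one of the 10 under 0.05 in each gender, against 4.68% of genes in females and 6.93% in males, and no member was called in either (background 0.0261% and 0%). The line by gender interaction, the line difference in females minus that in males, was 0.022 (95% interval -0.12 to 0.17). Over 15 other settings the adjusted p of Ncan by limma ran from 0.0953 to 0.358. Of 13 astrocyte markers, 12 were above 0 in the High minus Low comparison (median log2 difference 0.074), against 48.5% of all genes. Only 1 of the 13 had an unadjusted p under 0.05 (limma), against 9.07% of all genes, and none was called. The sums of the 13 markers ran from 31743 to 49830 normalised reads in High mice and from 33968 to 45103 in Low mice. With the mean astrocyte level as a covariate, chosen after the data were seen, the log2 difference of Ncan was 0.086 (unadjusted p = 0.0141, limma), and none of the 10 genes was under 0.05 in males.

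Bcan, the most abundant lectican of the adult brain and a component of nets and of the matrix around nodes, had nearly the same level in both lines. It had 3545, 4279.5 and 4965 normalised reads (lowest, median and highest) in High females and 3575, 4238 and 5533 in Low females. High males had 3484, 3873.5 and 5105 normalised reads and Low males 3254, 4098.5 and 5037. The log2 line difference was -0.00025 ± 0.053 (SE), and its 95% interval of -0.11 to 0.11 leaves out changes of more than 1.08-fold in either direction.

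Vcan, a lectican of glial precursors and of the loose matrix, spread over a wider range. It had 498, 605.5 and 854 normalised reads in High females and 476, 511 and 871 in Low females. In males it had 315, 573.5 and 848 normalised reads in the High line and 375, 642.5 and 890 in the Low line. The medians stood in the opposite order in females and in males, and the log2 line difference was 0.15 in females and -0.070 in males. Without High male replicate 1, the male difference was 0.0034. Over all libraries the difference between the female and the male value was 0.22 ± 0.18 (SE), with an unadjusted p of 0.227 by limma. The lowest 2 of 48 values, 315 and 375, were in High male replicate 1 and Low male replicate 6.

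Acan values were low, and 31 of 48 libraries reached 1 ppm (14.1 normalised reads). It had 9, 17.5 and 34 normalised reads in High females, 6, 17.5 and 24 in High males, 10, 16.5 and 36 in Low females and 5, 13 and 31 in Low males. The log2 line difference was 0.059 with a 95% interval of -0.19 to 0.30, and Acan averaged 18.1 ± 7.00 normalised reads in females and 15.0 ± 6.77 in males (SD, n = 24 each; log2 difference 0.21, unadjusted p = 0.0960, limma). In the GRCm38 annotation Acan ends 2 bases from the end of Hapln3 on the other strand, and Hapln3 averaged 54.8 ± 26.3 normalised reads (SD, n = 48). Whether counting used strand is not stated, so reads that run past either end cannot be told apart.

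The link proteins showed no called difference. Hapln1, which stabilises the lectican-hyaluronan bond in nets, had 138, 177.5 and 227 normalised reads in High females, 136, 173.5 and 228 in High males, 144, 183.5 and 278 in Low females and 124, 176.5 and 236 in Low males. Its log2 line difference was -0.038 (95% interval -0.18 to 0.10). Hapln2 had 26, 39 and 63 normalised reads in High females, against 28, 50 and 106 in Low females. In males it had 22, 38.5 and 52 in the High line, against 16, 43 and 102 in the Low line. Over both genders the High values lay inside the Low range, whose top was higher in females and in males. Its mean was 39.8 ± 10.7 normalised reads in High mice and 51.0 ± 25.6 in Low mice (SD, n = 24 each), a log2 difference of -0.22 ± 0.14 (SE) with an unadjusted p of 0.141 by limma. Of 15 oligodendrocyte markers, 10 were lower in High mice at an unadjusted p under 0.05, against 4.5% of all genes, and none was called (limma). Within gender, 9 of these markers were lower at that threshold in females and 1 in males. Of all genes, 4.68% in females and 6.93% in males reached it in either direction. The sums of the 15 markers ran from 10260 to 27033 normalised reads in High mice and from 14723 to 27204 in Low mice. Hapln2 had a Pearson correlation of 0.16 with their mean level over the 48 mice, after subtracting group means. With their mean level as a covariate, the log2 difference of Hapln2 was -0.16 (unadjusted p = 0.289, limma). With the mean astrocyte level as a covariate, chosen after the data were seen, it was -0.090 (unadjusted p = 0.516, limma).

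Hapln4, the link protein that pairs with Bcan at inhibitory synapses, had 61, 80.5 and 112 normalised reads in High females and 69, 82 and 94 in Low females. High males had 70, 100.5 and 204, and Low males 49, 84.5 and 192. The top values of both male groups were in 2 of the 3 libraries highest in cortical markers. Hapln4 averaged 81.4 ± 12.7 normalised reads in females and 96.9 ± 36.4 in males (SD, n = 24 each), a log2 difference of -0.18 ± 0.099 (SE) with an unadjusted p of 0.0811 by limma. Without the 3 libraries it was -0.067 (unadjusted p = 0.401, limma).

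Of the tenascins, Tnr, which crosslinks lecticans in nets, had 48, 70.5 and 116 normalised reads in High females and 52, 88 and 111 in Low females. In males it had 44, 79 and 208 in the High line and 60, 75.5 and 135 in the Low line. The value of 208 was in High male replicate 1, and the highest of the 45 libraries outside the 3 was 135. The log2 line difference was -0.079 (95% interval -0.30 to 0.14), and -0.14 without the 3 libraries (unadjusted p = 0.149, limma). Tnc, the tenascin of immature and reactive tissue, had 6, 19 and 44 normalised reads in High females and 3, 23 and 58 in High males, against 6, 15.5 and 43 in Low females and 6, 18.5 and 33 in Low males. Its log2 line difference of 0.18 was the highest of the 10, with a 95% interval of -0.16 to 0.52. The annotated exons of Tnr overlap those of Gm38039 and the exons of Tnc those of 8030451A03Rik, so these pairs could share reads.

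Ptprz1, whose extracellular part binds tenascins and the growth factor pleiotrophin, had 1506, 1909.5 and 2302 normalised reads in High females and 1493, 1777 and 2465 in Low females. High males had 1340, 2002 and 2601, and Low males 1318, 1906.5 and 2696. The log2 line difference was 0.039 ± 0.072 (SE; 95% interval -0.11 to 0.18).

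**Figure D2:**
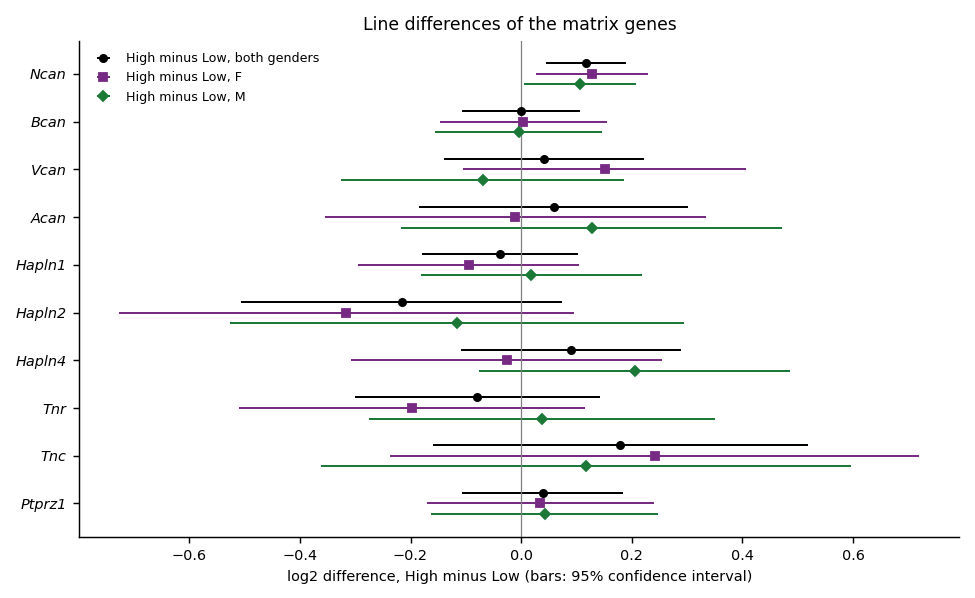
Log2 difference, High minus Low (horizontal axis), of each matrix gene over both genders (circles), in females (squares) and in males (diamonds), with bars for the 95% interval. The 3 intervals of Ncan lie above 0 and those of the other 9 genes include 0.

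No gender difference of the 10 genes was called, against 12 of 15350 genes, or 0.0782%, and none reached an unadjusted p under 0.05 (limma; 4.21% of all genes). With other settings up to 2 did by limma: Acan with library weights (0.25, unadjusted p = 0.0469), Hapln4 with the oligodendrocyte covariate (-0.21, unadjusted p = 0.0376), and Bcan (0.11, unadjusted p = 0.0395) and Acan (0.25, unadjusted p = 0.0469) with the astrocyte covariate, none of them called. The log2 differences, females minus males, ran from -0.18 for Hapln4 to 0.21 for Acan. No line by gender interaction was called for any gene (0%, limma), and 0 of the 10 genes reached an unadjusted p under 0.05, against 2.4% of all genes.

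The spread between mice was compared as the mean absolute distance from the group median on the log2 scale. Hapln2 had a mean distance of 0.29 in High mice and 0.49 in Low mice, at an unadjusted p of 0.0254 and an adjusted p of 0.998 by limma. No member was called, against 9 genes or 0.0586% of those tested, and 3.97% of genes had an unadjusted p under 0.05. Between the genders, the mean distance of Hapln4 was 0.16 in females and 0.31 in males, that of Tnr 0.19 in females and 0.36 in males and that of Ncan 0.070 in females and 0.12 in males, at unadjusted p-values of 0.0104, 0.0154 and 0.0393 by limma. No gene was called in this comparison (0%), 3.87% of genes reached an unadjusted p under 0.05, and the adjusted p by limma was 0.985 for all 3 genes. Without the 3 libraries highest in cortical markers the unadjusted p was 0.0852 for Hapln4, 0.0936 for Tnr and 0.0420 for Ncan.

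Most of the 10 genes had more reads per kb in their 3′ exons, as the plot of exon profiles shows. The last exon held 91.9% of the reads of Hapln4, 90.4% of Hapln1 and 88.3% of Ncan, against a median of 58.8% over 14045 tested genes. It held 50.2% of the reads of Vcan, 47.8% of Acan, 37.0% of Hapln2, 34.5% of Ptprz1, 33.7% of Tnr, 29.3% of Bcan and 29.2% of Tnc. The first exon of Bcan had 62.2 normalised reads per kb and the last 2795. Exons 1 to 11 of Acan were at 0 in 46 to 48 of 48 libraries, so its gene value came from the 3′ part. Hapln2 was highest in its middle exons: exon 3 had 46.4 normalised reads per kb and the last exon 15.9. Levels between exons therefore compare distance from the 3′ end as well as splicing, and the part of each was not tested.

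**Figure D3:**
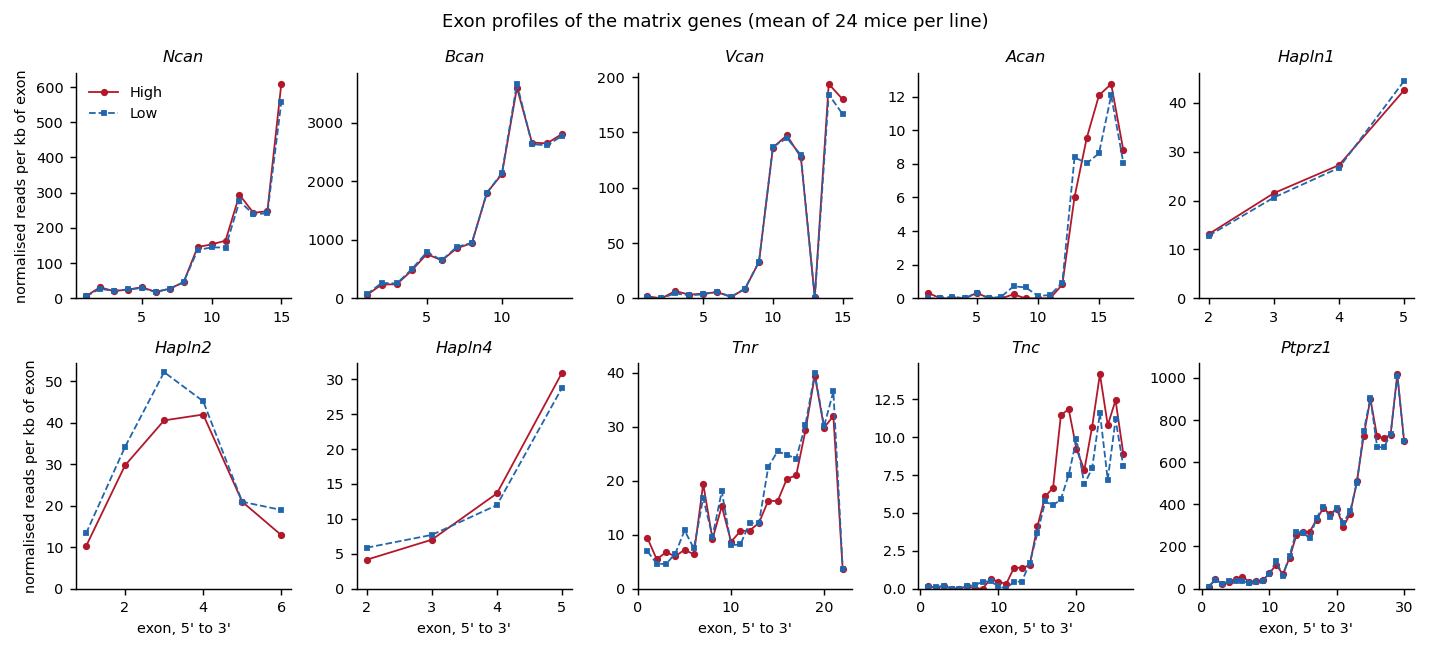
Mean normalised reads per kilobase of exon (vertical axis, linear from 0) against the exon's order from 5′ to 3′ (horizontal axis) in 24 High mice (red circles) and 24 Low mice (blue squares). Exons with no matched length (the last of Vcan, the first of Hapln1 and of Hapln4) are left out. The lines of the High and Low mice run close together, and the levels are mostly higher in 3′ than in 5′ exons, though not from each exon to the next. The lowest 3′ values are at the 35-base exon 13 of Vcan and the 7636-base last exon of Tnr, and Hapln2 is highest in its middle exons.

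The GAG-beta exon of Vcan, whose junction is printed above, carried most of the gene's reads upstream of the last exon. It had 172 ± 50.2 normalised reads, or 33.0 ± 9.63 per kb, and the GAG-alpha exon 25.0 ± 7.83, or 8.70 ± 2.72 per kb (SD, n = 48). The GAG-beta exon was above the GAG-alpha exon per kb in 47 of 48 mice, with a median ratio of 3.77 (range 0.881 to 7.56). In High mice the ratio averaged 4.17 ± 1.49, and in Low mice 3.91 ± 1.095 (SD, n = 24 each). The shared exon after GAG-beta had 137 ± 44.0 normalised reads per kb. Set against the median of the other inner exons, the GAG-beta exon had a log2 ratio of 2.51 ± 1.57 in High mice (n = 24) and 2.19 ± 0.704 in Low mice (n = 22), a difference of 0.32 with p = 0.389 by a two-sided permutation test with 100000 resamples. Set against the sum of the other exons with a matched length, per length, the difference was -0.060 (p = 0.453, permutation test). The last exon, with 50.2% of the gene's reads, had no matched length and was not in that sum. Low female replicate 2 and Low male replicate 11 were left out of the ratio to the median only, because the median of their other inner exons was 0. Over the 48 mice that median averaged only 7.34 normalised reads per kb, and the log2 ratios ran from -0.12 to 6.06. With so low a denominator, and only Low mice left out, the difference of 0.32 cannot be read as a shift between the lines.

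Exon 12 of Ptprz1, which holds the sugar-bearing part of the long receptor and of phosphacan, had 228 ± 74.2 normalised reads, or 64.3 ± 20.9 per kb (SD, n = 48). Exon 13 had 151 ± 59.2 normalised reads per kb and exon 11 had 122 ± 66.8. Exon 12 was below exon 13 per kb in all but 1 of 48 mice, with a median ratio of 0.421. The short form keeps 1000 of the 3547 bases of this exon, and the deposited exon value does not separate the forms. Against the median of the other inner exons its log2 ratio was -2.06 ± 0.368 in High mice and -2.17 ± 0.326 in Low mice (SD, n = 24 each), a difference of 0.11 with p = 0.262 by the same permutation test. The 21-base exon 16, at 254 ± 143 normalised reads per kb, had a lower mean than exon 15 (267 ± 86.2) and exon 17 (332 ± 97.3), by less than its own spread between mice. Its mean was 270 ± 102 in High mice and 238 ± 177 in Low mice (SD, n = 24 each). The longest inner exon of Acan had 3483 bases, but the median of the other inner exons was 0 in all 48 libraries, so that ratio could not be computed.

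No gene of the 10 was called for exon usage by line, against 0.51% of 14702 genes (limma diffSplice, Simes p per gene). By gender the share was 0.17% and for the interaction 0.184%, with no member called in either. The smallest unadjusted Simes p of the 10 was 0.0906 by line (Tnr) and 0.147 by gender (Hapln1), both by limma diffSplice. Of the 115 exons tested in these genes, 4 had an unadjusted p under 0.05 by line, against 2.91% of all exons tested. The smallest was exon 15 of 22 in Tnr (mm9 chromosome 1, start 161825092, 144 bases), with 2.33 ± 2.5 normalised reads in High mice and 3.67 ± 1.66 in Low mice (SD, n = 24 each). Its relative usage differed by -0.78 on the log2 scale (unadjusted p = 0.00453, adjusted p = 0.919, limma). In Ptprz1 the smallest was exon 4 (-0.45, p = 0.0159) and in Bcan exon 1 (-0.26, p = 0.0375), both unadjusted by limma and both at an adjusted p of 1. For the interaction, Ptprz1 had the smallest unadjusted Simes p of the 10, 0.00798, with an adjusted p of 0.455 (limma diffSplice).

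Lecticans and link proteins sit in pairs in the genome. On GRCm38, Ncan and Hapln4 lie tail to tail on chromosome 8 with 2222 bases between them, Bcan and Hapln2 on the same strand of chromosome 3 at 21.52 kb, and Vcan and Hapln1 tail to tail on chromosome 13 at 43.66 kb. Acan, beside Hapln3, is on chromosome 7, Tnr on chromosome 1, Tnc on chromosome 4 and Ptprz1 on chromosome 6. Across the 48 mice, Pearson correlations of log2 values after subtracting group means were -0.28 for Ncan with Hapln4 and 0.25 for Bcan with Hapln2. For Vcan with Hapln1 the correlation was 0.078. Acan and Hapln3, whose annotated ends lie 2 bases apart, had the highest Pearson correlation of these pairs, 0.38. Reads that run past either of those ends cannot be told apart. All correlations here are descriptions over 48 libraries, and genes share the library, its depth and its cell makeup.

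Of the 45 pairs among the 10 genes, 24 had a correlation above 0, and the median was 0.036. The strongest was negative, Bcan with Ptprz1 at -0.65 (Spearman -0.61; -0.62 without the 3 libraries highest in cortical markers). Among all 15349 other genes ranked by correlation with Bcan, Ptprz1 came at 15325. Hapln1 and Ptprz1 ran together at 0.53 (Spearman 0.47). Vcan ran opposite to Tnr at -0.57 and to Hapln4 at -0.51, and without the 3 libraries these were -0.46 and -0.29. Tnr and Hapln4 had a correlation of 0.36 with all libraries and 0.046 without the 3.

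With cell type markers, Hapln1 followed the mean astrocyte level at 0.59, Ptprz1 at 0.51 and Ncan at 0.46. Hapln2, Bcan, Acan and Tnr had negative correlations with that level, at -0.43, -0.30, -0.25 and -0.19, and those of the other 3 genes were between -0.023 and 0.15. Ptprz1 also had a correlation of 0.61 with the mean of the parvalbumin interneuron list, and Acan, the aggrecan of nets around those cells, of -0.30. Neither was particular to that list or gene. Ptprz1 was at 0.52 with other interneurons, 0.49 with ependymal and choroid plexus and 0.44 with septal and diencephalic neuron markers. Its lowest was -0.30, with medium spiny neurons. With the parvalbumin list, Bcan was at -0.42 and Hapln2 at -0.37, and the remaining genes ran from -0.13 (Vcan) to 0.39 (Hapln1). Hapln4 and Tnr followed the cortical pyramidal level at 0.57 and 0.50, which became 0.17 and 0.22 without the 3 libraries. Ncan had a correlation of 0.57 with the column total. Tnr and Vcan moved in opposite directions with the share of reads in last exons, at -0.56 and 0.50, which became -0.45 and 0.35 without the 3 libraries. The part of these measures in the correlations between genes was not tested.

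**Figure D4:**
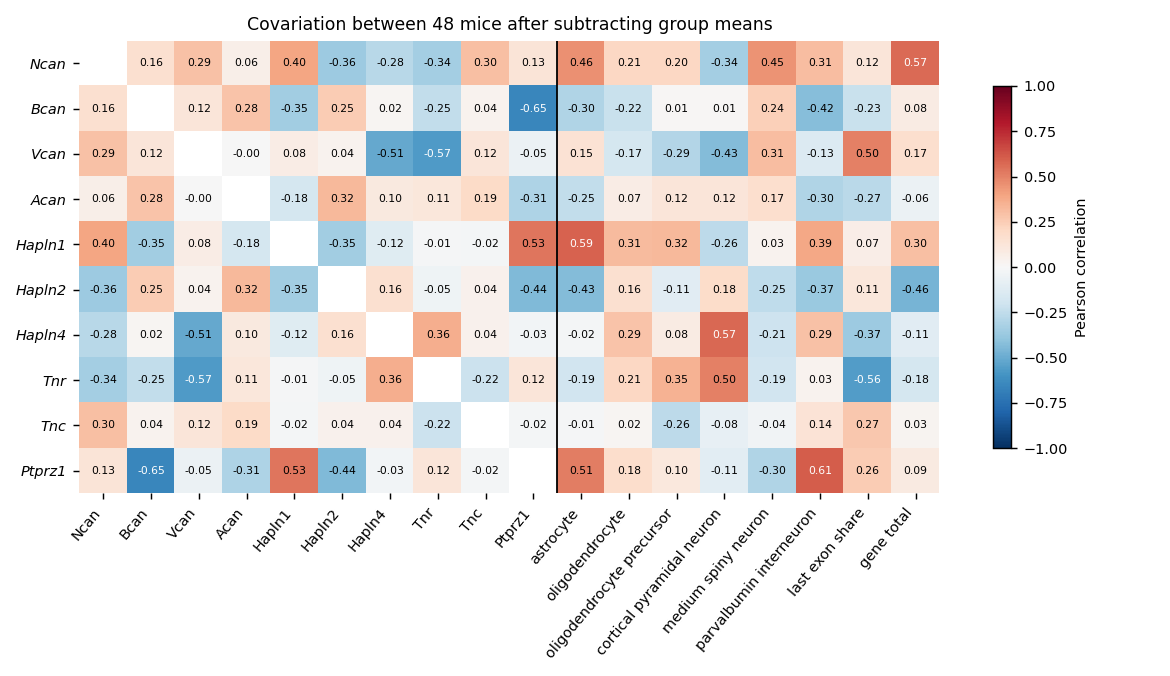
Pearson correlation (colour and printed value) of log2 levels over 48 mice after subtracting the 4 group means, for each matrix gene (rows) with the other matrix genes, with the mean level of 6 marker lists, with the share of reads in last exons and with the column total (columns). Bcan with Ptprz1 at -0.65 and Ptprz1 with the parvalbumin interneuron list at 0.61 are the extreme values.

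For the pair of members that ran together most, Hapln1 and Ptprz1, the promoters are shown, from 250 bases before to 50 bases after the start (RefSeq, GRCm38.p6), with matches to the GC box GGGCGG in capitals on either strand. RefSeq promoters were matched for 9 of the 10 genes, Tnc with 2 starts. The Ptprz1 promoter, chr6:22875252-22875551 on the plus strand, holds 2 GC boxes and 29 CpG. The Hapln1 promoter, chr13:89540386-89540685 on the plus strand, holds none and has 3 CpG.
Ptprz1 promoter: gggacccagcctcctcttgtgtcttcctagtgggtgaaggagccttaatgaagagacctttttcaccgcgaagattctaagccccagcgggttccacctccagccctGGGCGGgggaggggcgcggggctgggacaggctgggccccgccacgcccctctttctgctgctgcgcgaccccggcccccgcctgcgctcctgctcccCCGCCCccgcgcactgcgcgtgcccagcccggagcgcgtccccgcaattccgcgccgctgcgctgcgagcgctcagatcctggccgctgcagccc
Hapln1 promoter: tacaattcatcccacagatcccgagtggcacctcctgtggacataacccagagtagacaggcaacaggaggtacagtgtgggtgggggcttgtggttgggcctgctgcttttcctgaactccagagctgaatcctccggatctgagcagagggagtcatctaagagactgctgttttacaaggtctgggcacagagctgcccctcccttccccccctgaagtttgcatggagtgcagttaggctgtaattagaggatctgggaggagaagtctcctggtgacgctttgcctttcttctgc
The windows of the 2 Tnc starts overlap and share their matches, so members are counted by gene. A GC box was in the promoters of 6 of 9 genes and in 35.7% of 32851 promoters. The TATA box TATAAA was in those of 2 of 9 genes, Ncan and Tnc, and in 13.6% of all promoters. These matches are descriptions of letters and not of bound sites.

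Genes with the pattern most like each member were listed among those with a mean of at least 5 ppm, by Pearson correlation over 48 libraries after subtracting group means. For Ncan they were Gm20458 (0.71), Dbndd2 (0.67) and Prelid3b (0.65). Bcan had Zdhhc18 (0.80) and Gas2l1 (0.77), and Vcan had Prpf38b (0.74), Scn1a (0.73) and Upf3b (0.71). For Acan they were Ccdc120 (0.61), Fam222b (0.55) and Wars (0.54). Hapln1 had Fam19a2 (0.70), Hadh (0.70) and the astrocyte gap junction gene Gja1 (0.67), and Hapln2 had Hic2 (0.77), Ccdc9 (0.73) and Nrbp2 (0.72). Hapln4 had Rph3a (0.71), Myrip (0.68) and Etl4 (0.67), whose correlations were 0.48, 0.42 and 0.37 without the 3 libraries. Tnr had Prkca (0.78), Usp22 (0.76) and Gpr26 (0.73), Tnc had Xkr6 (0.54), Id3 (0.54) and 1 gene with no symbol (0.50), and Ptprz1 had Tmem47 (0.76), Fam91a1 (0.75) and Smc2 (0.75).

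A list of 83 other matrix genes (synthesis, sulfation, proteolysis and receptors) gave 74 that could be tested. None was called by line, gender or interaction, against 0.28%, 0.0782% and 0% of all genes (limma). At an unadjusted p under 0.05 there were 6, 5 and 0 of the 74, against 9.07%, 4.21% and 2.4% of all genes. Of the 6 by line, 5 were higher in High mice, and the smallest adjusted p was 0.308 (Rtn4rl1, limma). Over the 74 the median log2 difference was 0.0037, and 38 were above 0. Among 21 genes of chondroitin sulfate synthesis and sulfation, 8 were above 0. Dse, the epimerase that turns chondroitin into dermatan sulfate, averaged 107 ± 36.9 normalised reads in High mice and 82.4 ± 24.4 in Low mice (log2 difference 0.33, unadjusted p = 0.0101, limma). Chst12, a chondroitin 4-sulfotransferase, averaged 156 ± 21.6 in High mice and 170 ± 21.7 in Low mice (log2 difference -0.12, unadjusted p = 0.0379, limma). The sulfatase gene Arsb had a log2 difference of 0.14 (unadjusted p = 0.0475, limma).

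Among 21 proteases, inhibitors and hyaluronidases, 12 were above 0. Tmem2, a cell surface hyaluronidase, averaged 196 ± 33.7 normalised reads in High mice and 172 ± 26.6 in Low mice (log2 difference 0.18, unadjusted p = 0.00864, limma). Adamts1, a protease that cleaves lecticans, averaged 48.5 ± 15.7 in High mice and 37.4 ± 13.0 in Low mice (log2 difference 0.32, unadjusted p = 0.0119, limma). Among 18 receptors and ligands of the matrix, 10 were above 0. The receptor gene Rtn4rl1 averaged 634 ± 70.9 normalised reads in High mice and 584 ± 53.4 in Low mice (log2 difference 0.12, unadjusted p = 0.00843, limma). Ptn, the pleiotrophin that binds Ptprz1, averaged 2104 ± 311 in High mice and 1938 ± 285 in Low mice (log2 difference 0.12, unadjusted p = 0.0555, limma).

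Among 11 other proteoglycans, link proteins and tenascins, 7 were above 0. Dcn (decorin) had the smallest p, with a log2 difference of 0.26 (unadjusted p = 0.0547, limma), followed by the neural proteoglycan Cspg5 at 0.069 (unadjusted p = 0.0604, limma). Of the hyaluronan genes, 3 of 5 were tested: the receptor Cd44 differed by 0.12 and the synthase Has1 by -0.058 on the log2 scale, at unadjusted p-values of 0.307 and 0.563 by limma. By gender, 5 of the 74 had an unadjusted p under 0.05. Dcn, Adamts15 and Cspg4 had log2 differences of 0.38, 0.19 and 0.12, females minus males, and Rtn4rl1 and Nptx2 of -0.089 and -0.21. Of all genes, 1.93% were higher and 2.29% lower in females at that threshold. Of 7 leptomeningeal fibroblast markers, 5 were tested and all 5 were above 0 in females minus males (median 0.23, 3 at an unadjusted p under 0.05, none called, limma), with sums of 396 to 897 normalised reads in females and 346 to 743 in males. All 9 oligodendrocyte precursor markers, Cspg4 among them, were also above 0 (median 0.037, 2 at an unadjusted p under 0.05, none called, limma). Cspg4 was also in the endothelial and mural list, where 7 of 9 markers were above 0. This was not particular to these lists: all 10 medium spiny neuron markers and 13 of 15 oligodendrocyte markers were above 0. Of 9 microglia markers 1 was, and of all 15350 genes 7318 were. The part of these cell types in the gender differences was not tested.

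**Figure D5:**
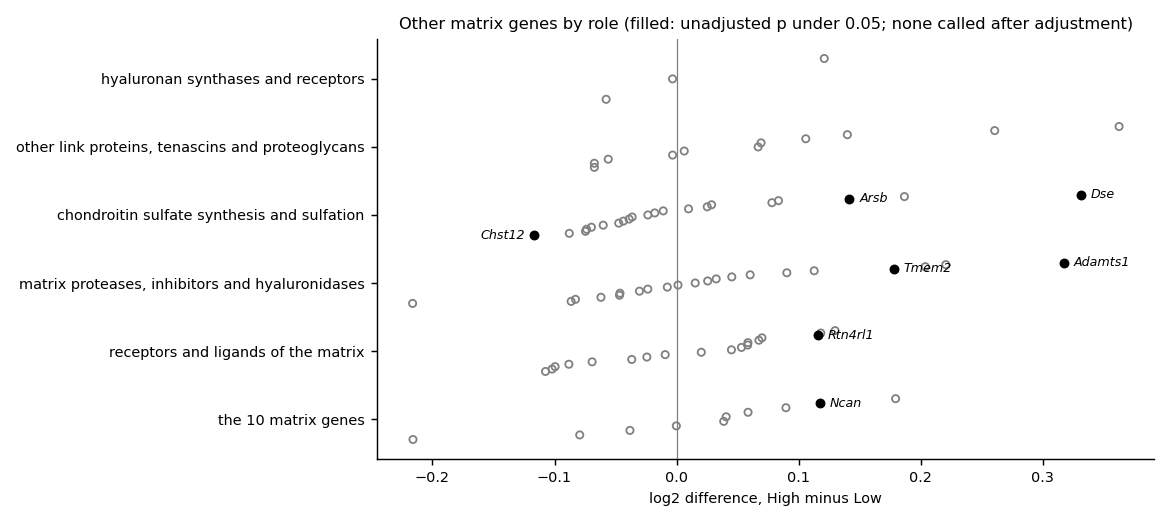
Log2 difference, High minus Low (horizontal axis), of 74 other matrix genes grouped by role and, in the lowest row, of the 10 matrix genes, a point per gene. Filled points have an unadjusted p under 0.05, and none was called after adjustment.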

How the data were processed

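One poly(A) RNA-seq library per mouse was analysed, 48 in all. Both tables hold a score: read counts per gene and per exon that the authors normalised by an unstated method and rounded to whole numbers before they were deposited. The submitters' processing notes name mm9 as build and edgeR 3.4.2, R 3.0.2, STAR 2.4.0, FastQC and CASAVA as tools, with no order; counter, annotation and strand setting are not given in the sources used here. Because raw counts were not used here, no count model was run and no counting interval is given. Exon starts are mm9; symbols, exon lengths and printed sequences are GRCm38 (GENCODE M21, RefSeq), and 153 of 156 exons were matched to an annotated exon by their spacing.

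Values were compared as log2(value + 0.5 ppm) with limma 3.58.1 in R 4.3.3 (4 group means, mean-variance trend) over genes at 1 ppm or more in 12 or more libraries, where 1 ppm is 14.1 normalised reads; fold changes of low genes are understated. Exons at 0.1 ppm in 12 libraries were compared with diffSplice (pseudocount 0.05 ppm). The tests were tried on simulated data with known changes. On these, the exon usage test called more unchanged genes than its threshold allows.

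The members, gene lists and tests were chosen with earlier results of these data known. The text names all 10 members, called genes and the 2 of each role with the smallest p among the other matrix genes, the 3 most correlated genes (1 for Bcan is not reported here), and for exons the smallest p, the longest inner exon and the last. Arsb, Adamts15, Cspg4 and Nptx2 were named after their values were seen. Replicate numbers only name mice, in order of listing.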

Additional observations from a re-analysis of the deposited data

How the results depend on the processing

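Under every alternative run, the number of the 10 genes called was 0 in each of 83 counts of called genes (differences, exon usage and variability), and the smallest adjusted p of any member was 0.0953 (Ncan, limma, oligodendrocyte markers as a covariate). Of all the other values recomputed, 46 changed sign, each from a difference that was not called, and the cause was not tested; values are log2 differences, High minus Low, unless another is named. Counts of members at an unadjusted p under 0.05 also moved in 4 cases (limma): by gender from 0 to 1 with library weights, to 1 with the oligodendrocyte covariate and to 2 with the astrocyte covariate, and by line in males to 0 with the astrocyte covariate, against 1. With equal column totals, the difference of Bcan was -0.0023 in females, 0.0022 in males and -0.0045 as interaction. It was -0.00021 in females with equal upper quartiles and 0.00095 with quantile normalisation. With library weights, Tnr in males was -0.025, and the interactions of Tnc and Ptprz1 were -0.091 and 0.017. Without High male replicate 1, Bcan was 0.0075 and in males 0.011, Vcan in males 0.0034 and Tnr in males -0.073, and the interactions of Bcan and Ptprz1 were -0.0076 and 0.030. With the oligodendrocyte covariate, Hapln1 was 0.011, in females Bcan was -0.034, Acan 0.017 and Hapln4 0.066, and the interactions of Bcan and Ptprz1 were -0.015 and 0.017. With the cortical covariate, Hapln4 in females was 0.0011.

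The next settings were chosen after seeing the data. With the last exon share as covariate, Bcan was 0.0055 and in females Acan was 0.039 and Hapln4 0.029. With the astrocyte covariate, Bcan was 0.032 and Ptprz1 -0.036. In females Acan was 0.025 and Ptprz1 -0.011. In males Bcan was 0.041, Hapln1 -0.095, Hapln2 0.060 and Ptprz1 -0.062. The gender difference of Ncan was -0.00028 and the interactions of Bcan and Ptprz1 were -0.018 and 0.051. Without the 3 libraries highest in cortical markers, Bcan was 0.024 and Ptprz1 -0.0092. In males Bcan was 0.044, Tnr -0.091, Hapln1 -0.036 and Ptprz1 -0.053. The gender difference of Tnr was 0.0020, the interactions of Bcan and Ptprz1 were -0.041 and 0.087, and the line difference in variability of Acan was 0.0018.

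For the GAG-beta exon of Vcan, the High minus Low log2 ratio was -0.060 against the sum of the other exons per length (p = 0.453, permutation test). That sum left out the last exon, which had no matched length. Acan, Tnc and Hapln2 have no value with the filter of 5 ppm. No paired analysis was possible because the labels number each mouse on its own and pair no mice. Low values limit what can be seen in Acan, Tnc and the 5′ exons.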
